A study of Mus musculus with 15 samples.

Results

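Ventricle RNA of 3 mice after 24 hours of Celf1 induction was compared with that of 3 mice after 12 hours. The comparison used 6 of the 15 mice of the series, and its members are the samples labelled with these times. Both groups carried MHCrtTA, a doxycycline-dependent activator driven in heart muscle cells by the alpha myosin heavy chain promoter, and TRECUGBP1, a tetracycline-inducible cassette for Flag-tagged human Celf1, LYLQ isoform. All 6 mice were 20 to 22 weeks old and received food with 2 g/kg doxycycline, after a period of 2 to 3 hours with no food. The mice called A3258, A3252 and A3276 had it for 12 hours, and A3254, A3277 and A3262 for 24 hours. Values given for 3 mice follow this order. Control mice without the cassette were not used, so a difference here is between 2 times on doxycycline in transgenic hearts. The hours of the day at which hearts were taken, and when the mice last ate, are not in the labels, so time on doxycycline cannot be told apart from either.

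Celf1 is an RNA-binding protein that regulates alternative splicing and messenger RNA decay, and raised levels of it in heart are part of the biology of myotonic dystrophy. Heart muscle also runs a circadian clock. In that clock Arntl pairs with Clock or Npas2 to switch on the Per, Cry and Nr1d genes, whose products then shut off the activators, and outputs such as Dbp, Tef and Hlf pass the rhythm on to metabolic genes. In this loop Arntl and the Per genes peak at roughly opposite times of day, which does not hold for every activator and repressor.

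Transcript levels were deposited as RPKM, reads scaled to transcript length and to the mapped reads of the library, for 16042 genes. Differences below are of log2(RPKM + 1), 24 hours minus 12 hours, with the moderated standard error from limma, and understate the change of genes near 1 RPKM. Of these genes 10478 had a mean of at least 1 RPKM over the 6 mice and were tested. Among the called genes named below, Per2, Myoz1, Spon2 and Acot3 had all values of 1 group under 1 RPKM. They entered the test only through the group where they were high. A gene was called past the test at a Benjamini-Hochberg adjusted p of 0.05 over all genes tested. Depth was estimated as 14.5 to 39.9 M reads per column. Each table column carries a code of unstated meaning, and no code of a 24 hour column was carried by a column of another time, so code and time cannot be told apart here. A3262 had a pair of columns, which were averaged. Nothing in the labels ties mice of the groups to each other.

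The induced transcript did not differ between the 2 groups beyond the spread of the mice. Celf1 (listed as Cugbp1, chr2:90780539-90859654 in mm9) stood at 351, 220 and 345 RPKM at 12 hours and at 416, 423 and 295 RPKM at 24 hours. The groups overlapped, with a difference of 0.32 ± 0.22 and an adjusted p of 0.458. The exact two-sided permutation p was 0.3, and a design of 3 and 3 mice cannot go below 0.1. Reads of the human transgene count in this row only where they aligned to the mouse gene.

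Clock genes, a pair of glucocorticoid-responsive genes and the enzyme genes Fmo2 and Xdh were among the firmest differences between the 2 times. In all 168 of 10478 genes passed, or 1.6%. Of these 140 were higher at 24 hours (1.34%) and 28 lower (0.267%). The fitted change was over 2-fold for 92 of the higher and 20 of the lower genes. For each of the 168 genes the 3 values at 24 hours lay on 1 side of the 3 at 12 hours. Such separation was seen in 2431 genes, or 23.2%, with 1930 above (18.4%) and 501 below (4.78%). The median difference of all genes tested was 0.14, and the split of the calls depended on the scale. Median-of-ratios scaling of the libraries put that median at 0.01 and gave 156 calls (1.49%), split into 75 higher and 81 lower. Of these 99 were among the 168 in the same direction. Quantile normalization gave 153 (1.46%), 73 higher and 80 lower. Correction for GC content gave 307 (2.99%), 161 higher and 146 lower. Higher and lower in the text therefore hold on the deposited scale unless another is named. So do separate groups, which with median-of-ratios scaling were 1092 genes above and 1332 below. Where separate groups are named for a gene that did not pass, 23.2% of all genes had them.

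**Figure D1:**
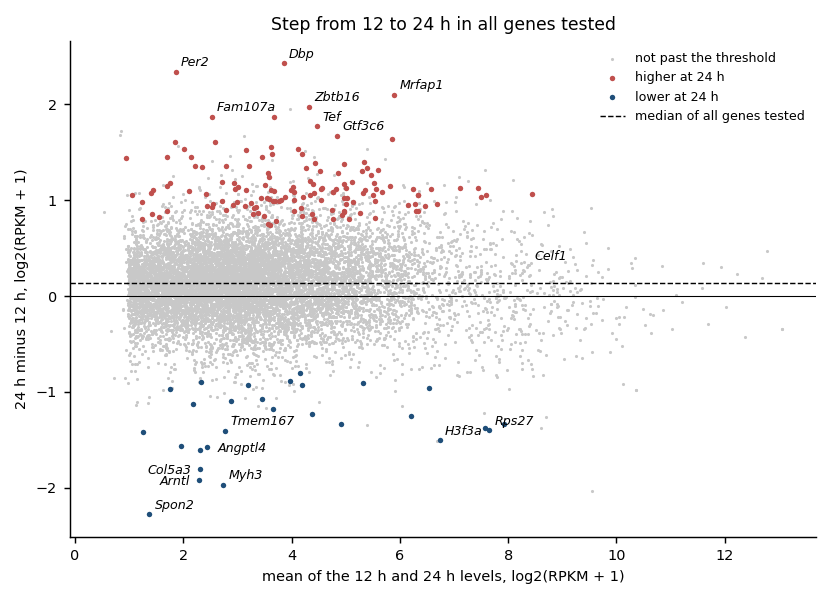
Difference between 24 and 12 hours (vertical axis, log2(RPKM + 1)) against the mean level of both times (horizontal axis, same unit) for the 10478 genes tested, 1 point a gene. Red points are the 140 genes past the test and higher at 24 hours, blue points the 28 lower, and the dashed line is the median of 0.14; Per2 and Dbp stand highest and Spon2 lowest among the coloured points, while Celf1 lies among the grey ones.

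Most calls were lost when 1 mouse was left out, and 23 of the 168 passed in every other setting in which they were tested, among 18 settings run. These were 17 higher genes (among them Dbp, Per2, Zbtb16, Fam107a, Fmo2, Tef, Map3k6, Per3, Fkbp5, Gnao1, Coq10b, Wee1, Myoz1, Bcl2l1, Rhobtb1 and Xdh) and 6 lower genes (Spon2, Myh3, Arntl, Col5a3, Tmem167 and Slc41a3). The other 145 were lost when 1 of the 6 mice was left out. Counts without 1 mouse were 34 without A3258, 80 without A3252, 37 without A3276, 278 without A3254, 33 without A3277 and 45 without A3262. Smaller groups and a different spread enter each of these fits, so a lost call need not rest on the mouse left out. The direction changed for 0 of the 168 genes in these fits.

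In the clock the activator Arntl fell from 12 to 24 hours, while Per2, Per3, Ciart, Dbp, Tef and Wee1 rose. Arntl, the non-redundant activator (chr7:120350979-120457636 in mm9), was at 8.67, 8.60 and 8.24 RPKM at 12 hours and at 1.09, 2.12 and 1.45 RPKM at 24 hours. It fell by 1.92 ± 0.21, with an adjusted p of 0.000422, and each 12 hour value exceeded all values of the other 9 induced mice, those after 72 hours and 7 days included. Npas2, a partner of Arntl, had a mean under 1 RPKM and was not tested. It was listed at 1.62, 1.56 and 1.45 RPKM at 12 hours and at 0.20, 0.31 and 0.21 RPKM at 24 hours, with no overlap. The other partner, Clock, differed by -0.25 ± 0.20 and its groups overlapped. Of 6 activators Npas2 and Rorb were too low to test. Of the 4 tested 1 fell and 0 rose, beside 0.267% and 1.34% of all genes. The nuclear receptor gene Rora stood at 0.62 ± 0.24 and did not pass.

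Among the repressors, Per2 (chr1:93312561-93355907) was at 0.57, 0.48 and 0.81 RPKM at 12 hours and at 8.34, 6.85 and 6.43 RPKM at 24 hours. The lowest 24 hour mouse was thus far above the highest 12 hour mouse, and Per2 rose by 2.34 ± 0.19, with an adjusted p of 1.76e-05. Per3 (chr4:150377761-150418774) went from 1.40, 1.52 and 1.26 RPKM to 7.07, 5.88 and 4.92 RPKM, a rise of 1.53 ± 0.21 with an adjusted p of 0.00158. Ciart, a small inhibitor of the Arntl and Clock pair (listed as Gm129, chr3:95682426-95686174), was at 1.44, 1.04 and 1.26 RPKM and at 4.52, 4.13 and 3.65 RPKM. Its rise of 1.18 ± 0.25 had an adjusted p of 0.0307, which reached 0.117 over the alternatives, and the call was lost without any 1 of the 6 mice. For Per2, Per3 and Ciart all 12 hour values lay below those of the other 9 induced mice.

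Of 10 repressors tested 3 rose and 0 fell, beside 1.34% and 0.267% of all genes, and their median difference was 0.80. The 7 that did not pass were not alike. Per1 was at 5.11, 4.18 and 8.61 RPKM and then at 12.9, 13.9 and 9.30 RPKM, which did not overlap, with a difference of 0.94 ± 0.31 and an adjusted p of 0.136. Cry2 and Nr1d2 stood at 0.68 ± 0.21 and 0.89 ± 0.23, also with separate groups. Nr1d1, which encodes a receptor that represses Arntl, stood on the opposite side at -0.99 ± 0.31, from 21.3, 24.2 and 21.7 RPKM to 12.9, 10.5 and 9.22 RPKM. Its adjusted p was 0.122, and 0.0389 with GC correction. It shares exon sequence with Thra on the other strand, and no source says whether reads kept their strand, so their origin is uncertain. Cry1 and Bhlhe40 lay at 0.12 ± 0.22 and -0.01 ± 0.23, and Bhlhe41 at 0.71 ± 0.30, each with overlapping groups.

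Of the outputs Dbp, Tef and Wee1 rose. Dbp, a transcription factor that binds D-box sequences (chr7:52960458-52965525), was at 5.60, 4.66 and 5.46 RPKM at 12 hours and at 30.3, 39.0 and 28.9 RPKM at 24 hours. It had the largest difference of all called genes, 2.43 ± 0.36, with an adjusted p of 0.00323. An exon stretch of 491 bases overlaps Sphk2 on the opposite strand, which leaves the source of a part of its reads uncertain. Tef, of the same family (chr15:81632851-81657291), went from 8.10, 14.8 and 11 RPKM to 52.6, 36.4 and 33.2 RPKM, a rise of 1.77 ± 0.24 with an adjusted p of 0.00157. Wee1, a kinase that delays entry into mitosis and is driven by the clock (chr7:117265864-117285626), went from 2.17, 1.53 and 1.41 RPKM to 7.87, 6.63 and 4.84 RPKM, or 1.45 ± 0.21 with an adjusted p of 0.00269. Hlf, the third member of the Dbp family, differed by 1.05 ± 0.26 and missed the threshold at 0.0554, though its groups were separate, and with median scaling it passed at 0.048. Of 7 outputs tested 3 rose and 0 fell, beside 1.34% and 0.267% of all genes, with a median of 1.05. Nampt, the enzyme of NAD salvage, and the ubiquitin protease gene Usp2 stood at 0.70 ± 0.25 and 0.36 ± 0.23, and Nfil3, an antagonist at D-boxes, at -0.14 ± 0.23.

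**Figure D2:**
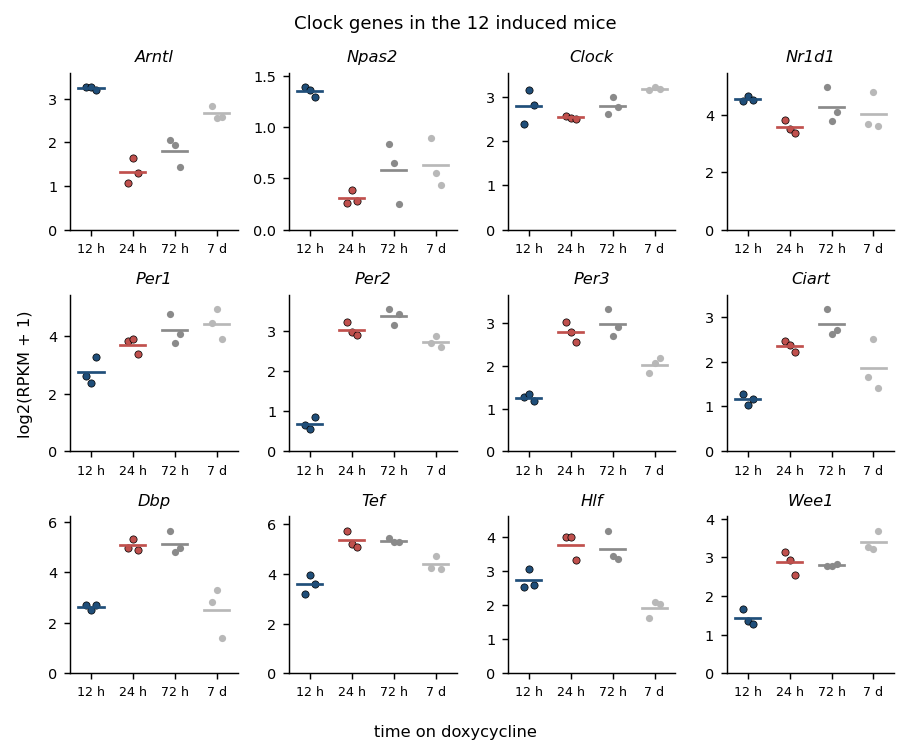
Levels of 12 clock genes (vertical axis, log2(RPKM + 1), each panel with its own scale from 0) in the 12 induced mice by time on doxycycline (horizontal axis), 1 point a mouse, with a line at each group's mean. Arntl and Npas2 are high at 12 hours and low at 24 hours, and Per2, Per3, Ciart, Dbp, Tef and Wee1 are the other way round.

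The start regions of the called clock genes were read for the 2 motifs through which the clock factors bind. Those of clock genes that did not pass were not read. These are the E-box CACGTG, used by Arntl and its partners, and the D-box TTANGTAA, used by Dbp, Tef, Hlf and Nfil3. Windows of the 250 bases before each start site came from RefSeq (GRCm38.p6), and both strands were searched. An E-box was present in 6.02% and a D-box in 2.06% of 32851 such windows. Of the 7 called clock genes 5 had a window there. Ciart held E-boxes at 116, 58 and 44 bases before its start (chr3:95882229-95882478, minus strand). Tef held 1 at 138 bases (chr15:81811164-81811413, plus strand) and another in a second start region, while Per3 held D-boxes at 205 and 158 bases (chr4:151044666-151044915, minus strand). For Arntl and Dbp neither run of letters occurred in the window. The 3 windows follow, 5′ to 3′, with the motifs in capitals, and a match is a description of the letters only.
Ciart: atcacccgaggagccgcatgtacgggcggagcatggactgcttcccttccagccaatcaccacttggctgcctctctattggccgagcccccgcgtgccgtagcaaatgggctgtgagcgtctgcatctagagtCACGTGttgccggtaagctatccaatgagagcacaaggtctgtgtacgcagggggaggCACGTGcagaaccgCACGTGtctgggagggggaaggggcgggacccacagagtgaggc
Tef: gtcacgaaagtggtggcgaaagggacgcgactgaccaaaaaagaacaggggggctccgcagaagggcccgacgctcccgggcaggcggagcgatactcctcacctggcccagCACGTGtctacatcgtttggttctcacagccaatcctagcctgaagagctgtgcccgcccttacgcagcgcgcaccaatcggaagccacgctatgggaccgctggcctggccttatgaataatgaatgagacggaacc
Per3: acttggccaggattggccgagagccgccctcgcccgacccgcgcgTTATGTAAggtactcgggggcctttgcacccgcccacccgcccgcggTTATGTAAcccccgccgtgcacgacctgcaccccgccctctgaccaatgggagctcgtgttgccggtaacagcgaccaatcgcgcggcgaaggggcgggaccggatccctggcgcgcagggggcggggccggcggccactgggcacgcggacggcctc

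Beyond the clock, 2 genes that respond to glucocorticoid hormones were among the firmest rises. Zbtb16, a zinc finger transcription factor (chr9:48462416-48644050), was at 8.86, 8.71 and 9.69 RPKM at 12 hours and at 43.5, 37.8 and 35.0 RPKM at 24 hours. It rose by 1.98 ± 0.17, with an adjusted p of 2.09e-05, and its 24 hour values lay above those of all other 9 induced mice. Fkbp5, a co-chaperone of the glucocorticoid receptor (chr17:28536040-28654469), went from 3.81, 4.68 and 4.36 RPKM to 18.4, 13.7 and 11.3 RPKM, a rise of 1.52 ± 0.22 with an adjusted p of 0.00281. After 7 days it was at 66.8, 63.9 and 59.2 RPKM, so its 24 hour level was not its highest. Of 18 glucocorticoid-responsive genes tested these 2 rose and 0 fell, beside 1.34% and 0.267% of all genes, with a median of 0.64. The leucine zipper gene Tsc22d3 stood at 0.87 ± 0.25 and the cortisone-activating enzyme gene Hsd11b1 at 1.31 ± 0.41, with separate groups and adjusted p of 0.0851 and 0.116. With GC correction 2 members also fell, the phosphatase gene Dusp1 and the receptor inhibitor gene Errfi1. Glucocorticoid hormone itself was not measured.

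Fam107a, a stress-responsive actin-binding protein gene (listed as BC055107, chr14:9128788-9150537), was at 1.16, 2.29 and 2.81 RPKM and then at 13, 9.95 and 7.62 RPKM. It rose by 1.87 ± 0.24, with an adjusted p of 0.00123. Fam107a is not in the glucocorticoid list and was added to the motif search by choice, as the only gene outside the searched lists. Fam107a had 3 RefSeq windows, not all of which held a pair of half-sites spaced as in glucocorticoid response elements. In the window shown the pair starts 118 bases before the start (chr14:8309780-8310029, minus strand, GRCm38.p6). The same pair lies 120 bases before the start of an overlapping window. Such a pair, searched on both strands, occurs in 0.387% of all windows of that length, and is shown in capitals as a description of the letters only. The window of Fkbp5 was read the same way and held 0 such pairs. It did hold an E-box, at 169 bases before its start, so among called genes that motif was not confined to the clock lists. Zbtb16 had no window to read.
Fam107a: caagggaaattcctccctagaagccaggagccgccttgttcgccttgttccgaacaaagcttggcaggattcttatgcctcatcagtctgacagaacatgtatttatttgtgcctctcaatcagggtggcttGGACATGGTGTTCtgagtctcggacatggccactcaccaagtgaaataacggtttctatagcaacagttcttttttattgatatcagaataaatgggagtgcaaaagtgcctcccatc

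A pair of enzyme genes rose as strongly. Fmo2, a flavin-containing monooxygenase (chr1:164804448-164828857), was at 4.95, 6.09 and 6.01 RPKM at 12 hours and at 26.8, 21 and 22.6 RPKM at 24 hours, a rise of 1.87 ± 0.23 with an adjusted p of 0.000839. Map3k6, a stress-activated kinase (chr4:132796733-132808844), went from 1.04, 0.77 and 1.41 RPKM to 4.96, 5.87 and 4.99 RPKM, or 1.61 ± 0.21 with an adjusted p of 0.00157. For both genes all 12 hour values lay below those of the other 9 induced mice.

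The 6 genes that follow lie outside the rule for naming genes and were chosen after their values had been seen, because they passed in every setting that tested them. Bcl2l1, an inhibitor of apoptosis, rose from 14.6, 11.2 and 11.7 RPKM to 29.3, 36.4 and 37.0 RPKM, by 1.38 ± 0.20. Xdh, xanthine dehydrogenase, was nearly even within each group, at 18.7, 17.0 and 17.1 RPKM and at 37.7, 39.5 and 37.9 RPKM, and rose by 1.08 ± 0.16. Gnao1, a G protein subunit, and Coq10b, a coenzyme Q binding protein, each rose by 1.48 ± 0.21. Rhobtb1, an atypical GTPase gene, rose by 1.33 ± 0.21. Myoz1, the calsarcin of fast skeletal muscle, was near 0 at 12 hours, at 0.22, 0.24 and 0.04 RPKM, and reached 1.58, 2.77 and 2.25 RPKM, a rise of 1.44 ± 0.23. In limma these 6 had an adjusted p between 0.00269 and 0.00699.

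Spon2, Col5a3, Myh3, Tmem167 and Slc41a3 were, with Arntl, the genes that fell in every setting that tested them. Spon2, a secreted matrix protein gene (chr5:33556167-33560887), was at 3.08, 8.90 and 3.52 RPKM at 12 hours and at 0.12, 0.19 and 0.22 RPKM at 24 hours. It fell by 2.27 ± 0.30, with an adjusted p of 0.00157. Col5a3, a chain of type V collagen (chr9:20574494-20619511), went from 8.30, 8.93 and 7.64 RPKM to 1.65, 2.25 and 1.19 RPKM, a fall of 1.80 ± 0.21 with an adjusted p of 0.00077. These were the 2 of 23 matrix genes tested that fell, while 0 rose, beside 0.267% and 1.34% of all genes. The list's median was -0.17. After 7 days Col5a3 stood at 15.5, 17.8 and 12.0 RPKM, above both earlier times.

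Myh3, the embryonic myosin heavy chain (chr11:66891802-66915793), was at 13.3, 11.5 and 11.9 RPKM and then at 1.96, 2.92 and 2.31 RPKM. It fell by 1.97 ± 0.29, with an adjusted p of 0.00289, and all 12 hour values lay above those of the other 9 induced mice. It was the 1 of 11 fetal and load-response genes tested that fell, and 0 rose, beside 0.267% and 1.34% of all genes. The list's median was 0.36. Tmem167, a small Golgi membrane protein gene (chr13:90228728-90283512), went from 10.6, 8.39 and 11.7 RPKM to 2.92, 2.82 and 4.02 RPKM, or -1.40 ± 0.20 with an adjusted p of 0.00269. Its 24 hour values were below those of all other induced mice, but it shares 112 exon bases with Xrcc4 on the opposite strand. Slc41a3, a magnesium transporter gene outside the naming rule, fell by 1.33 ± 0.21, from 49.4, 49.6 and 42.3 RPKM to 21.2, 19.2 and 14.4 RPKM.

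**Figure D3:**
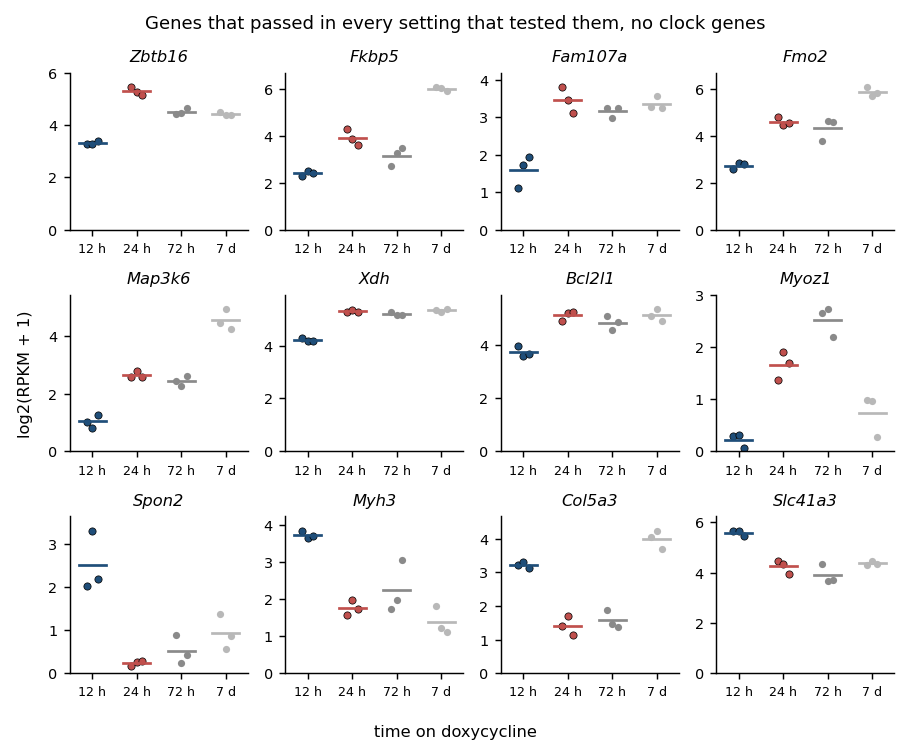
Levels of 12 genes outside the clock lists that passed in each setting that tested them (vertical axis, log2(RPKM + 1), own scale from 0 in each panel) in the 12 induced mice by time on doxycycline (horizontal axis), 1 point a mouse, with a line at each group's mean. Zbtb16 peaks at 24 hours, Fkbp5, Fmo2 and Map3k6 go on to higher levels at 7 days, and Col5a3 is low at 24 and 72 hours only.

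Genes of the fasting and PPAR-alpha response, which serve fat use when food is short, had 11 of 16 members below 0. Targets of ATF4 had the same count, 11 of 16, so such a lean was not particular to fasting genes. The fasting list's median was -0.23, beside 0.14 for all genes tested. Beside 1.34% higher and 0.267% lower of all genes, 0 of the 16 rose past the test and 1 fell. That gene was Angptl4, an inhibitor of lipoprotein lipase, at 9.17, 8.66 and 7.20 RPKM and then at 3.59, 1.78 and 1.41 RPKM. It fell by 1.57 ± 0.35 with an adjusted p of 0.0382, a call lost without any 1 mouse other than A3254, with all 15 mice in the fit, with A3264 left out of it and with no filter. Pdk4, the kinase that shuts off pyruvate oxidation, was at 141, 153 and 234 RPKM and then at 105, 39.8 and 50.6 RPKM. Its groups did not overlap, and its difference of -1.51 ± 0.40 had an adjusted p of 0.0681, or 0.0389 with GC correction, under which 3 of the list fell. The acyl-CoA thioesterase gene Acot1 stood at -1.10 ± 0.32, and passed the test with GC correction and with median scaling alike. Of its relatives Acot3 and Acot5, which are among the largest falls, Acot3 went from 3.93, 1.95 and 3.08 RPKM to 0.33, 0.60 and 0.46 RPKM. The calls for Acot3 and Acot5, at -1.42 ± 0.26 and -1.57 ± 0.33, were lost without any of A3258, A3276, A3262 and A3277, that of Acot5 also without A3252, and their similar sequences may share reads.

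Glucose uptake and glycolysis had 1 of 21 genes higher and 0 lower, beside 1.34% and 0.267% of all genes, with a median of 0.06. The glucose transporter gene Slc2a1 rose from 3.51, 3.00 and 3.13 RPKM to 5.62, 8.63 and 7.08 RPKM, by 0.93 ± 0.22. Its adjusted p was 0.048, and the call was lost without any 1 mouse other than A3254. Hexokinase Hk2 and phosphofructokinase Pfkl stood at 0.72 ± 0.19 and 0.88 ± 0.24, with separate groups and adjusted p of 0.0658 and 0.0735. In the insulin and IGF list 1 of 23 rose and 0 fell, beside the same shares of all genes. It was Pik3r1, a regulatory subunit of phosphoinositide 3-kinase, which rose by 1.17 ± 0.23 with an adjusted p of 0.0204. That call was lost without A3258, A3276, A3262 or A3277. Neither Slc2a1 nor Pik3r1 passed with median scaling. Of 26 genes of fatty acid uptake and oxidation 0 passed, with a median of -0.05.

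Protein synthesis factors gave the largest number of calls of any single list, all of them lost on another scale or when 1 mouse was left out. Of 59 translation initiation and elongation factors 6 rose and 0 fell, beside 1.34% and 0.267% of all genes. The list's median was 0.25, beside 0.14 for all genes. With median scaling 1 passed, and with GC correction 4. The cap-binding factor gene Eif4e was at 64.6, 67.2 and 60 RPKM and then at 103, 151 and 174 RPKM, a rise of 1.11 ± 0.24 with an adjusted p of 0.0337. Its inhibitor Eif4ebp1 was at 30.3, 18.9 and 24.2 RPKM and then at 50.7, 75.7 and 71.5 RPKM, a rise of 1.40 ± 0.28 with an adjusted p of 0.0213. The gain of both the factor and its inhibitor is a measurement on transcripts only. Eif1ax rose by 0.99 ± 0.22, Eif3j1 by 1.33 ± 0.31, Eif3a by 0.89 ± 0.21 and Eif5 by 1.11 ± 0.27, the last 2 named outside the rule. Each of the 6 calls was lost without any 1 of A3252, A3258, A3276, A3262 and A3277, and that of Eif5 also without A3254. Eif3j1 shares 541 exon bases with Spg11 on the opposite strand.

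Of 14 Foxo factors and muscle atrophy genes 3 rose and 0 fell, beside 1.34% and 0.267% of all genes, with a median of 0.38. The 3 were Eif4ebp1, the transcription factor gene Foxo3 and the muscle ring finger gene Trim54. Foxo3 stood at 0.94 ± 0.23, with an adjusted p of 0.0499, and was lost without any 1 of the 6 mice. Trim54 stood at 1.12 ± 0.25, with an adjusted p of 0.0382, and was lost without A3252, A3276, A3262 or A3277. Foxo3 and Trim54 did not pass with median scaling. The ubiquitin ligase gene Trim63 was at 180, 151 and 153 RPKM and then at 268, 231 and 330 RPKM, with a difference of 0.76 ± 0.21 and an adjusted p of 0.0738.

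Of 24 antioxidant and Nrf2 target genes 2 rose and 0 fell, beside 1.34% and 0.267% of all genes, with a median of 0.18. Srxn1, sulfiredoxin, which repairs peroxiredoxins, was at 1.87, 2.22 and 3.45 RPKM and then at 7.00, 12.6 and 9.76 RPKM, a rise of 1.61 ± 0.28. The glutathione transferase gene Gsta3 went from 6.65, 6.26 and 5.56 RPKM to 15.0, 17.7 and 30.0 RPKM, a rise of 1.56 ± 0.26. The first call was lost without A3258 or A3277, at up to 0.0604, and the second without A3276, at 0.0528.

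A further group of large differences was graded among the 24 hour mice, with A3254 nearest to the 12 hour level. Rps27, a ribosomal protein gene, was at 292, 325 and 363 RPKM and then at 177 in A3254, 113 in A3277 and 92.0 RPKM in A3262, a fall of 1.40 ± 0.24. The histone gene H3f3a went from 180, 175 and 179 RPKM to 85.4, 59.8 and 47.0 RPKM, a fall of 1.5 ± 0.26, and Mpc1, of the mitochondrial pyruvate carrier, from 360, 294 and 265 RPKM to 199, 90.1 and 87.9 RPKM, a fall of 1.38 ± 0.27. The same order in the other direction held for Gtf3c6, a subunit of a transcription factor of RNA polymerase III. It went from 12.5, 17.7 and 15.6 RPKM to 28.6, 52.3 and 84.8 RPKM and rose by 1.67 ± 0.30. Coa5, a cytochrome oxidase assembly factor gene, went from 33.8, 38.8 and 24.5 RPKM to 54.0, 120 and 157 RPKM and rose by 1.63 ± 0.32. The respiratory subunit gene Ndufb3 was at 264, 251 and 211 RPKM and then at 396, 437 and 736 RPKM, a rise of 1.06 ± 0.23. These 6 genes were picked out for this order after their values were seen, and each was lost without A3277 and at least 1 other mouse. Rps27 and H3f3a have close copies elsewhere in the genome that could share reads. Mrfap1, which encodes a Morf4-associated protein, rose by 2.10 ± 0.41 with an adjusted p of 0.0213, with 52.2, 18.7 and 21.6 RPKM at 12 hours and 112, 172 and 94.2 RPKM at 24 hours, and was lost without A3252, A3276 or A3277.

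For respiratory subunits and for both sets of ribosomal proteins the share of calls was near the 1.6% of all genes. Of 76 oxidative phosphorylation subunits 1 rose (Ndufb3) and 0 fell, with a median of -0.10. Cox7a2 stood at -1.26 ± 0.31 with an adjusted p of 0.0544, and at 0.0283 with median scaling. Of 80 cytosolic ribosomal proteins 1 fell (Rps27), with a median of -0.09, and of 71 mitochondrial ones 1 rose (Mrpl9, by 1.02 ± 0.22), with a median of 0.01. Pyruvate entry and citric acid cycle had 1 of 24 lower (Mpc1). The heat shock list had 1 of 22 higher, the co-chaperone gene Dnajb4 at 1.08 ± 0.22, and the endoplasmic reticulum list 1 of 22 higher, Herpud1 at 0.89 ± 0.21. Of 34 splicing regulators other than Celf1 1 rose, Srsf10 at 1.0 ± 0.23. Dnajb4, Herpud1, Mrpl9, Srsf10 and Ndufb3 did not pass with median scaling.

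No member passed among 27 sarcomere and Z-disc genes, 22 of calcium handling, 24 ion channels and connexins, 21 cardiac transcription factors, 36 proteasome subunits, 20 immediate early genes, 15 p53 targets, 16 ATF4 targets, 9 acute inflammation genes, 16 of cell division, 20 of autophagy and lysosome, 19 of adrenergic signalling, 11 of iron uptake and storage and 2 cold-inducible genes. Their medians ran from -0.05 for iron to 0.32 for p53 targets and 0.61 for the cold-inducible pair, Cirbp at 0.89 ± 0.28 and Rbm3 at 0.33 ± 0.18. Phospholamban (Pln), the brake on the calcium pump, had separate groups and differed by -0.98 ± 0.26 with an adjusted p of 0.0671, or 0.0245 with median scaling. The stress factor gene Atf3 stood at 1.12 ± 0.29 and the p53 ligase gene Mdm2 at 0.54 ± 0.21, with separate groups and adjusted p of 0.0599 and 0.201. The reference gene Actb stood at -0.69 ± 0.26, at an adjusted p of 0.183, and was past the test at -0.84 with median scaling and at -0.78 with GC correction.

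**Figure D4:**
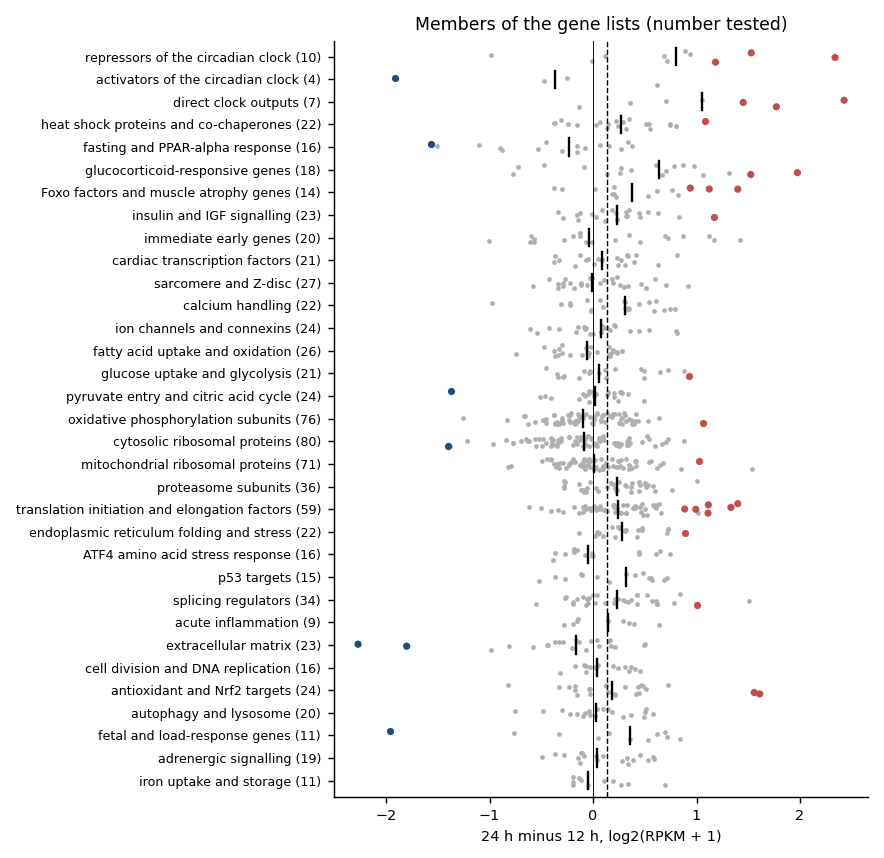
Differences between 24 and 12 hours (horizontal axis, log2(RPKM + 1)) of the members of the gene lists with at least 4 genes tested (rows, number tested in brackets), 1 point a gene. Red and blue points passed the test as higher and lower, the short bars are list medians and the dashed line is the median of 0.14 of all genes; clock repressors and outputs have the medians farthest to the right, at 0.80 and 1.05.

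Markers of other cell types were read as summed RPKM over each list. Such a sum follows its highest members and can say little of the others. In A3254 Fabp4, also in the fasting list, made up 829.65 of the adipocyte sum of 851.3 RPKM. Heart muscle markers stood at 44940 to 59360 at 12 hours and at 44070 to 58980 at 24 hours, and endothelial, fibroblast, mural, macrophage, lymphocyte, neutrophil, adipocyte, mesothelial and Schwann cell sums overlapped as well. Red cell markers, 6 of 7 in the table, summed to 2946 to 3923 at 12 hours and to 1110 to 1540 at 24 hours, without overlap. The adult globin gene Hbb-b1 differed by -2.03 ± 0.56, with an adjusted p of 0.0766, all 4 red cell genes tested were negative and 0 passed. Atrial markers summed to 121.5 to 156.6 and to 175.8 to 232.2, and 0 of 4 passed. Sln, an atrial regulator of the calcium pump, was at 98.0 RPKM in A3262 and at 8.97 to 16.7 RPKM in the other 5 mice. Fewer cells of a type and less RNA per cell cannot be told apart in such tissue, and the part of blood or atrial tissue in the other differences was not tested. On the deposited scale 0 members of the cell marker lists passed. With GC correction Hbb-b1 passed as lower, at an adjusted p of 0.0447. The endothelial junction gene Cldn5 stood at -0.78 ± 0.25 with separate groups, and passed as lower with GC correction, at 0.0231, and with median scaling, at 0.0424.

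The Y-linked genes Ddx3y and Eif2s3y were at 30.9 and 34.5 RPKM in A3254 and at 0.02 RPKM or less in the other 5 mice, so the 24 hour group held both sexes and the 12 hour group did not by this measure. The 2 columns of the 72 hour mouse A3264, which entered only the estimate of the spread, differed in these genes (Ddx3y at 0.1 and 21.75 RPKM). Without that mouse 100 genes passed, 80 higher and 20 lower. Exons of Tef, Cry2, Bhlhe40, Rora, Usp2, Rbm3, Gnao1, Rhobtb1, H3f3a, Acot3, Mpc1, Trim54, Pik3r1, Slc2a1 and Pln overlap an annotated transcript on the opposite strand, besides the overlaps named above, and their source is uncertain to that extent.

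Set among all 12 induced mice, more of the calls marked the 12 hour group as apart than the 24 hour group. Of the 168 called genes 78 had their 12 hour values below and 13 above those of all 9 other mice. The 24 hour values lay above all others for 26 and below for 9, the sets share 5 genes, and 47 calls had neither group apart. Over all genes tested the 12 hour group stood apart in 700 (6.68%) and the 24 hour group in 324 (3.09%). Since the calls were made on the same values, these positions are a description.

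**Figure D5:**
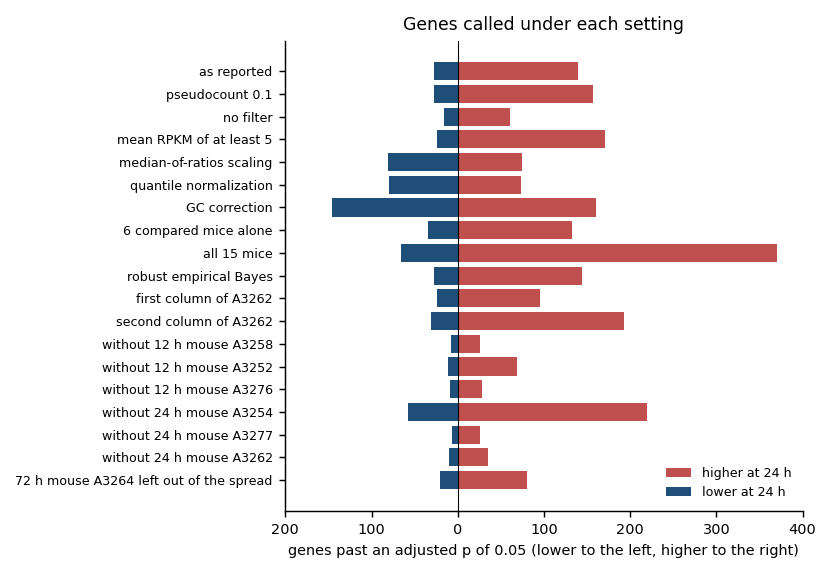
Genes past an adjusted p of 0.05 (horizontal axis, number of genes, lower at 24 hours to the left in blue and higher to the right in red) as reported and under the other 18 settings (rows). Scaling by median ratios, quantile normalization and GC correction bring the blue and red bars close to equal length, and leaving out A3258, A3276, A3277 or A3262 leaves fewer than 50 genes.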

How the data were processed

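Polyadenylated RNA from ventricle, with the atria and a bit of the apex taken off, was sequenced in paired ends, per the labels' protocols. The authors deposited 1 table of RPKM per gene with 20 columns for 15 mice. TopHat, Bowtie and mm9 are named in the submitters' processing notes, with no versions; the counting tool and read strand are not given in the sources used. Columns of 1 mouse were averaged. Depth was estimated from the step between values of 112 single-exon receptor genes, and in simulated columns 60 of 60 estimates were within 5%. No counts were rebuilt.

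On log2(RPKM + 1), 1 limma fit (version 3.58.1, R 4.3.3, lmFit, contrasts.fit, eBayes with trend) held the 12 induced mice in 4 groups, with 8 residual and 7.57 prior degrees of freedom. Genes needed a mean of at least 1 RPKM over the 6 mice. The fit was also run on simulated data with independent noise and no shifts of scale or GC content between libraries. That run cannot speak to such shifts. Whether mice of a group are littermates is not stated.

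The comparison, its members and the 48 gene lists (1029 of 1043 entries in the table) were chosen with earlier results of these data known. Named genes are Celf1, the clock and cold-inducible genes, the 12 largest called differences in each direction with separate groups, up to 4 genes of smallest p per other list, and the reference and Y-linked genes, of which a part is given, and some members are not reported here. Current symbols replace older ones by Entrez ID. Positions and GC content come from GENCODE vM1 (mm9), promoters from RefSeq. The alternatives were a pseudocount of 0.1, no filter, a mean of at least 5 RPKM, 2 scalings, GC correction (lowess, span 0.3), other sets of mice, robust estimation and either column of A3262. The fit without A3264 was added after seeing the data.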

Additional observations from a re-analysis of the deposited data

How the results depend on the processing

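The 168 calls (140 higher, 28 lower) depended on the setting. They became 77 (61 and 16) with no filter, 436 (370 and 66) with all 15 mice, 307 (161 and 146) with GC correction and 100 (80 and 20) without A3264, the last chosen after seeing the data. Median scaling gave 75 higher and 81 lower genes, and quantile normalization 73 and 80. Leaving out 1 of the 6 mice gave 33 to 278 calls in all, 26 to 220 higher and 7 to 58 lower. With 2 mice left in a group the pair is assumed to vary like the other groups. A pseudocount of 0.1, a mean of at least 5 RPKM, the 6 mice alone, robust estimation and either column of A3262 kept the total within 1.5 times. The genes were not all the same. The 6 mice alone gave 167 calls, of which 119 were among the 168. A mean of at least 5 RPKM, with 6940 genes tested, gave 195, of which 139 were. Celf1 did not pass in any setting, with an adjusted p between 0.305 (without A3262) and 0.843. Of 1496 recomputed values of 84 genes 4 changed sign, none past the test. Cry1 was at -0.0027 with median scaling, and between -0.082 (without A3276) and 0.27 when a mouse was left out. Bhlhe40 then lay between -0.14 and 0.19, with 0.14 without A3252 and 0.19 without A3262. Of 1686 list counts 178 moved. No paired analysis was possible because no replicate number is shared between the groups.

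Estimated depth limits genes near 1 RPKM most. Among 10280 genes with a known GC content the difference had a Spearman correlation of -0.17 with GC, given as a description. The lowest GC tertile held 64 higher and 7 lower calls and the highest 26 and 11. The cause of these shifts was not tested.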

Other observations

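The 2 columns of mouse A3262 allow a look at how far columns of 1 animal differ. Over 10445 genes their median absolute log2 difference was 0.14, and 60 genes were more than 2-fold apart.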
